A study of Mus musculus with 6 samples.

Results

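The BCL2 family decides whether a cell keeps its mitochondrial outer membrane intact or opens it, which releases cytochrome c and starts apoptosis. The set described here holds 10 family genes of the mouse, picked by gene symbol, out of 46078 genes in each table: the 4 anti-death genes Bcl2, Bcl2l1, Bcl2l2 and Mcl1, the 3 pore-forming effectors Bax, Bak1 and Bok, and the 3 BH3-only genes Bid, Bad and Bcl2l11. Each symbol had 1 row in all 6 tables, and all 10 genes were among the 14535 tested, those with at least 1 RPKM (reads scaled by gene length and by library depth) in at least 3 libraries. The libraries, 3 labelled CTX for cyclophosphamide and 3 labelled control, were made from whole ovary of C57BL/6 mice 8 to 9 weeks old. Cyclophosphamide is an alkylating chemotherapy drug that damages DNA and is toxic to ovarian follicles. The labels name no dose, route, interval after treatment, cycle stage or vehicle. They also do not tie each library to an animal of its own, so the p-values below reflect spread among libraries that could be technical.

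In the family, anti-death proteins bind and hold back both the effectors and the BH3-only proteins. BH3-only proteins are the sensors: they neutralise the anti-death proteins, and some of them also activate the effectors directly. In the ovary this balance is best known from follicle loss, where granulosa cells and oocytes die by apoptosis, and from the death of mouse oocytes after DNA damage. Bok, whose name stands for BCL2-related ovarian killer, was first isolated from rat ovary. RNA levels say nothing of the phosphorylation, cleavage and protein turnover that control many of these proteins.

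The values correspond to about 15900000 to 22300000 reads per library. One library, CTX 1, stood apart: its deviations from the 6-library mean fell with exonic length (Spearman correlation −0.27 across 14477 genes, which are not independent replicates), against 0.01 to 0.15 in the other libraries. The libraries also differed in cell content within each group. Summed levels of 14 luteal cell markers were 14070, 4123 and 4084 RPKM in CTX 1, 2 and 3 and 10360, 11490 and 5186 RPKM in controls 1, 2 and 3. Summed levels of 14 granulosa cell markers ran the other way, with 1132, 3594 and 3572 RPKM in CTX and 1921, 1737 and 4065 RPKM in control, as did 15 oocyte markers with 126.5, 459.1 and 455.1 RPKM in CTX and 201.4, 174 and 408.8 RPKM in control. Luteal markers were thus high in CTX 1 and controls 1 and 2, and follicle markers in CTX 2 and 3 and control 3. No marker of these 3 lists was at 0 in all libraries, which a low value in 1 library would be enough to meet. The filter for testing was passed by 13 of 14 luteal, 14 of 14 granulosa and 14 of 15 oocyte markers. Lymphocyte markers were close to 0, with sums of 3.53 to 4.76 RPKM in CTX and 4.63 to 5.1 RPKM in control over 10 genes. In whole-tissue RNA, fewer cells of a type and less RNA per cell cannot be told apart.

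None of the 10 genes was called different between CTX and control. By limma, with Benjamini-Hochberg adjustment over all genes tested, 0 members were higher and 0 lower at an adjusted p under 0.05, and 0% of all genes tested were called in either direction. At an unadjusted p under 0.05 there was 1 member, Bcl2l1, where 3.45% of all genes tested passed. Fold changes were positive for 6 of 10 members, where 48.8% of all genes tested had a positive one, and the median log2 fold change was 0.04 over the members and −0.01 over all genes. Bcl2l1 was also the 1 member with all CTX libraries above all control libraries, where 3.32% of genes had that order, and 0 members had the opposite order, where 5.5% of genes did. When limma weighted the libraries by their fit, CTX 1 and control 3 got little weight. In that fit 6 members passed, 3 higher and 3 lower, where 27.9% of all genes were called higher and 18.9% lower. The controls with most weight were luteal-rich and the CTX libraries follicle-rich, so group and cell content cannot be told apart there. A p above the threshold does not show that levels were equal, and the standard errors given below bound what 3 libraries a group could resolve.

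**Figure D1:**
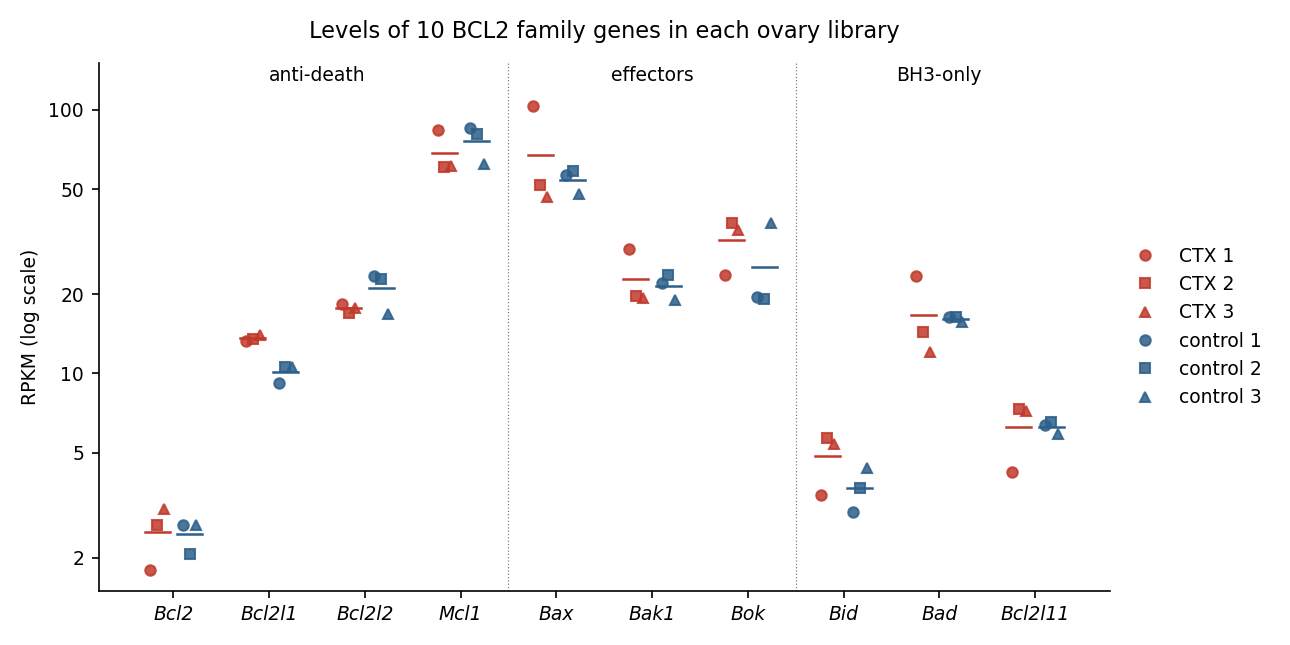
RPKM (log axis) of the 10 genes in each library, grouped by role, with CTX libraries in red left of control libraries in blue, a marker shape per replicate number and a line at each group's mean. The groups are apart in Bcl2l1, with 13.3 to 13.95 RPKM in CTX and 9.18 to 10.6 RPKM in control, and overlap in the other 9 genes.

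Levels spanned a wide range, and because RPKM is per length, genes can be ranked by it roughly. The annotation behind the lengths was not given, and CTX 1 showed a length trend. Averaged over all 6 libraries, Mcl1 (72.2 RPKM) and Bax (60.7 RPKM) led, followed by Bok (28.6), Bak1 (22.2), Bcl2l2 (19.4), Bad (16.4), Bcl2l1 (11.9), Bcl2l11 (6.28), Bid (4.27) and Bcl2 (2.48). Ranges over the 6 libraries were separate at 2 steps of this order, between Bax and Bok and between Bcl2l1 and Bcl2l11, and overlapped at the others. Mcl1 exceeded Bax in 5 of 6 libraries, with CTX 1 the exception, and Bok exceeded Bak1 in only 3. The least abundant member was Bcl2, the founder of the family, below Bid in 6 of 6 libraries. Bid shares exonic bases with Bcl2l13 on the opposite strand, so this order is less certain if reads were counted without strand. The same holds for the places of Bak1 and Bad, which share exonic bases with Ggnbp1 and Gpr137 on the opposite strand.

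Among the anti-death genes, Bcl2l1 encodes BCL-XL, which guards the mitochondria of many long-lived cells. It lies on the minus strand of chromosome 2 (152780668 to 152831728, mm10). Its level was 13.3, 13.5 and 13.95 RPKM in CTX 1, 2 and 3, against 9.18, 10.6 and 10.6 RPKM in controls 1, 2 and 3. All CTX libraries lay above all controls, including CTX 1, which held the extreme value in 5 other members. The group means were 13.6 ± 0.326 RPKM in CTX and 10.1 ± 0.831 RPKM in control (SD, n = 3 each here and below), a ratio of 1.34. The log2 fold change on the log2(RPKM + 1) scale, CTX minus control, was 0.39 ± 0.11 (SE), with an unadjusted p of 0.00962 and an adjusted p of 1 in limma. Leaving out each library in turn gave 0.33 to 0.42, with a lowest adjusted p of 0.199 in limma, reached without CTX 1.

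Mcl1, whose short-lived protein holds BAK1 in check, lies on the plus strand of chromosome 3 (95658788 to 95663176). It had 83.5, 60.8 and 61 RPKM in CTX 1, 2 and 3 and 85.2, 80.7 and 62.4 RPKM in controls 1, 2 and 3. Values fell into a high set (CTX 1, controls 1 and 2) and a low set (CTX 2 and 3, control 3), the same division that the luteal markers showed. Bcl2l2, Bax, Bak1 and Bad divided the libraries in the same way. In some the margin was narrow, as in Bad, with 16.4 RPKM in control 2 and 15.7 RPKM in control 3. The part of luteal content in these levels was not tested. The group means were 68.4 ± 13 RPKM in CTX and 76.1 ± 12 RPKM in control, and the log2 fold change was −0.15 ± 0.19 (limma adjusted p of 1), or −0.30 to −0.07 with 1 library left out.

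Bcl2l2, which encodes BCL-W, had 18.4, 17 and 17.8 RPKM in CTX 1, 2 and 3 and 23.5, 22.8 and 16.8 RPKM in controls 1, 2 and 3. Controls 1 and 2 stood above the rest, and control 3 lay just below the CTX libraries. The log2 fold change was −0.22 ± 0.15 (limma adjusted p of 1), or −0.37 to −0.14 with 1 library left out. It lies on chromosome 14 (54883377 to 54888234) and shares 594 of its 4462 exonic bases with Gm20521, a protein-coding entry on the same strand listed at 0.29 to 0.81 RPKM. Bcl2, on chromosome 1 (106538178 to 106714274), had 1.80, 2.67 and 3.07 RPKM in CTX and 2.65, 2.06 and 2.65 RPKM in control, with the lowest and the highest value both in CTX. Its log2 fold change was 0.01 ± 0.19 (limma adjusted p of 1).

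The sequence before the transcription start is shown for 3 members that differ in how they vary: Bcl2l1, with separate groups, Mcl1, high in the luteal-rich libraries, and Bok, high in the follicle-rich ones. Each is the 250 bases upstream of a RefSeq start (GRCm38.p6, the assembly of mm10), written 5′ to 3′ on the gene's strand, with capitals marking the GC box GGGCGG or its reverse complement. The windows are chr2:152831729-152831978 (minus strand, the outermost of 3 starts of Bcl2l1), chr3:95658471-95658720 (plus strand) and chr1:93685325-93685574 (plus strand).
Bcl2l1: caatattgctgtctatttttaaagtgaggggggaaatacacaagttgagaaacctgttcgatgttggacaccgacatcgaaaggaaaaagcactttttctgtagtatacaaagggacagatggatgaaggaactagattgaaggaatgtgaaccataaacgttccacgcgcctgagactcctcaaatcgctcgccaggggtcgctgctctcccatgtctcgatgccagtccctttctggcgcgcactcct
Mcl1: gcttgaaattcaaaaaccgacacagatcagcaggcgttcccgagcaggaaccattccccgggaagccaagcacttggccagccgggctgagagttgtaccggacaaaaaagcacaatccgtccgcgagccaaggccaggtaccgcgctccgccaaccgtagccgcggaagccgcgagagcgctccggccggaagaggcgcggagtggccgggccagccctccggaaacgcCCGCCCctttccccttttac
Bok: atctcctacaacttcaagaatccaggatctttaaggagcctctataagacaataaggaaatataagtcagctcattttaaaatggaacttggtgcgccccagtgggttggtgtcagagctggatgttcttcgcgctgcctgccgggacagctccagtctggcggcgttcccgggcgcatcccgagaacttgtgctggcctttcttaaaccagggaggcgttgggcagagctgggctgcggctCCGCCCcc
These letters occur 0 times in the Bcl2l1 window and 1 time each in those of Mcl1 and Bok. Over all 10 members, which have 14 such windows in the table, 9 windows held a GC box on either strand, where 32.7% of 32851 RefSeq windows did. CCAAT was found in 3 of the 14 windows, against 33.9% of all windows, and TATAAA in 0, against 12.4%. Overlapping matches were counted separately. CG dinucleotides, which also occur inside the GC box, numbered 12 in Bcl2l1, 26 in Mcl1 and 12 in Bok, against a median of 6 per window. A match describes the letters only,.

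Among the effectors, Bax encodes the protein that moves from the cytosol to mitochondria and is a transcriptional target of p53. Its gene lies on chromosome 7 (45461697 to 45466898). Bax had 103, 51.8 and 46.6 RPKM in CTX 1, 2 and 3 and 56.5, 58.4 and 47.7 RPKM in controls 1, 2 and 3. CTX 1 alone was far above the rest, while CTX 2 lay within the controls and CTX 3 just below them. The group means were 67.1 ± 31.2 RPKM in CTX and 54.2 ± 5.7 RPKM in control. The log2 fold change of 0.22 ± 0.30 (limma adjusted p of 1) turned to −0.13 ± 0.12 without CTX 1 (limma adjusted p of 0.555). At 1576 exonic bases, of which 192 are shared with Gm45808 on the same strand, Bax was the shortest of the 10 genes.

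Bak1 encodes the effector that resides on mitochondria in healthy cells. It had 29.6, 19.6 and 19.3 RPKM in CTX 1, 2 and 3 and 22, 23.6 and 18.9 RPKM in controls 1, 2 and 3. Again CTX 1 was the highest library, and the other CTX values lay between control 3 and the other two controls. The log2 fold change was 0.06 ± 0.19, and −0.13 ± 0.11 without CTX 1 (limma adjusted p of 1 and 0.536). Bak1 lies on chromosome 17 (27019810 to 27029009) and shares 437 of its 2407 exonic bases with Ggnbp1 on the opposite strand, which had 3.2 to 5.44 RPKM.

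Bok encodes the effector that is found largely at the endoplasmic reticulum and is held in check by protein degradation more than by the anti-death proteins. It lies on the plus strand of chromosome 1 (93685660 to 93695764). Bok had 23.7, 37.27 and 34.9 RPKM in CTX 1, 2 and 3 and 19.4, 19.2 and 37.25 RPKM in controls 1, 2 and 3. Control 3 was as high as CTX 2, and CTX 1 lay nearer to controls 1 and 2 than to the other CTX libraries. The group means were 32 ± 7.25 RPKM in CTX and 25.3 ± 10.4 RPKM in control, and the log2 fold change was 0.37 ± 0.30 (limma adjusted p of 1). Leaving out each library in turn gave 0.21 to 0.67, and 0.56 ± 0.30 without CTX 1 (limma adjusted p of 0.374). The 3 libraries with the highest Bok were those with the highest granulosa and oocyte marker sums. They also had the highest theca and interstitial sums (8 markers, 812.8, 1806 and 1802 RPKM in CTX 1, 2 and 3 and 1029, 945.1 and 1478 RPKM in controls 1, 2 and 3). The same held for 8 adipocyte markers, with 26, 191.5 and 178.1 RPKM in CTX and 22.6, 20.4 and 142 RPKM in control, and for 8 smooth muscle and pericyte markers, with 679, 814 and 751.2 RPKM in CTX and 504.3, 500.8 and 710 RPKM in control. The part of each of these cell types in the level of Bok was not tested.

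Bok and Bax thus differed in which libraries were high. Bok was 0.230, 0.720 and 0.749 times Bax in CTX 1, 2 and 3 and 0.344, 0.329 and 0.781 times Bax in controls 1, 2 and 3. Of the 3 effectors summed, Bok made up 15.2, 34.3 and 34.6% in CTX 1, 2 and 3 and 19.8, 18.95 and 35.9% in controls 1, 2 and 3. Libraries of 1 group differed far more in this share than the groups did, since the group means were 28 ± 11.2% in CTX and 24.9 ± 9.52% in control.

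**Figure D2:**
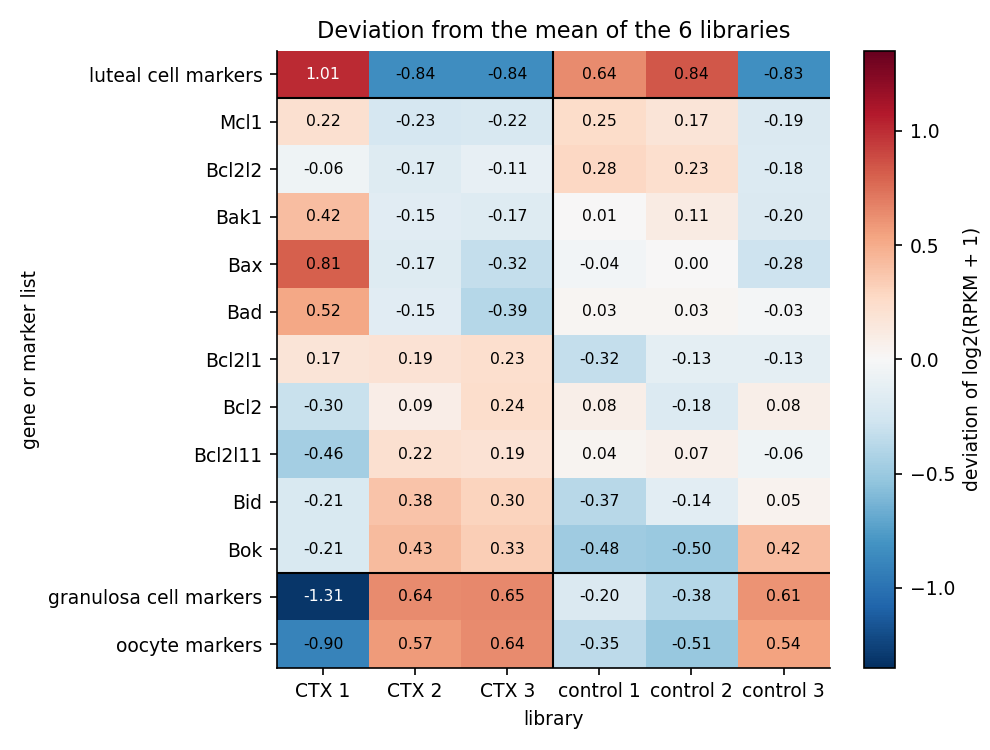
Deviation of log2(RPKM + 1) from the mean of the 6 libraries for the 10 genes and, above and below them, for the mean of the luteal, granulosa and oocyte marker lists, with CTX libraries left of controls. Bok is positive in CTX 2 (0.43), CTX 3 (0.33) and control 3 (0.42), where granulosa and oocyte markers are positive too, and Bax stands out in CTX 1 (0.81).

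Of the BH3-only genes, Bid links death receptors to mitochondria, because caspase-8 cleaves its protein. It had 3.46, 5.71 and 5.38 RPKM in CTX 1, 2 and 3 and 2.99, 3.69 and 4.36 RPKM in controls 1, 2 and 3. CTX 2 and 3 exceeded all controls, and CTX 1 lay between controls 1 and 2. As for Bok, the highest libraries were CTX 2, CTX 3 and control 3, those with the highest granulosa and oocyte marker sums. The part of these cell types in the level of Bid was not tested. The group means were 4.85 ± 1.22 RPKM in CTX and 3.68 ± 0.685 RPKM in control, and the log2 fold change was 0.31 ± 0.21 (limma adjusted p of 1), or 0.49 ± 0.15 without CTX 1 (limma adjusted p of 0.255). Bid lies on chromosome 6 (120891930 to 120916853) and shares 628 of its 3550 exonic bases with Bcl2l13 on the opposite strand. Bcl2l13 had 10.1 to 12.1 RPKM, more than Bid in every library, and if reads were counted without strand the shared bases cannot be told apart.

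Bad, whose protein is kept inactive by survival kinases, had 23.4, 14.4 and 12 RPKM in CTX 1, 2 and 3 and 16.4, 16.4 and 15.7 RPKM in controls 1, 2 and 3. The controls lay close together, with CTX 1 above and CTX 2 and 3 below them. The fold change was therefore near 0 (log2 −0.02 ± 0.23, limma adjusted p of 1) and −0.28 ± 0.10 without CTX 1 (limma adjusted p of 0.284). Bad is on chromosome 19 (6941861 to 6951899) and shares 524 of its 2558 exonic bases with Gpr137 on the opposite strand, itself at 18.3, 11.6 and 11.4 RPKM in CTX and 14.7, 13.95 and 11.7 RPKM in control.

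Bcl2l11 encodes BIM, a BH3-only protein that binds all the main anti-death proteins and is induced when growth factors are withdrawn. It had 4.24, 7.36 and 7.22 RPKM in CTX 1, 2 and 3 and 6.4, 6.56 and 5.9 RPKM in controls 1, 2 and 3, so here CTX 1 was below and CTX 2 and 3 above all controls. The log2 fold change was −0.03 ± 0.20, and 0.19 ± 0.09 without CTX 1 (limma adjusted p of 1 and 0.344). Its gene lies on chromosome 2 (128126038 to 128162547).

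CTX 1 thus held the extreme value in 5 of the 10 genes. It was the highest library for Bax, Bak1 and Bad, which have 1576, 2407 and 2558 exonic bases, and the lowest for Bcl2l11 and Bcl2, the longest members with 8029 and 9157. Bok, at 1840 exonic bases, had 23.7 RPKM in CTX 1, above controls 1 and 2 (19.4 and 19.2) and below the other 3 libraries (34.9 to 37.27). CTX 1 also had the highest luteal marker sum and the lowest granulosa and oocyte marker sums. The parts of its length trend and of its cell content in these values were not tested. Counted without CTX 1, a count added after the data were seen, 4 members (Bcl2l1, Bid, Bcl2l11 and Bcl2) had both CTX libraries above all controls, where 22.8% of all genes tested did. Mcl1 and Bad had both below, where 17% of genes did. With fewer libraries such an order is more common. The CTX libraries left in this count were both follicle-rich, while controls 1 and 2 were luteal-rich. The part of cell content in these orders was not tested. In the planned fit without CTX 1, 0 members were called by limma, where 0.0138% of genes were called higher and 0.0206% lower.

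**Figure D3:**
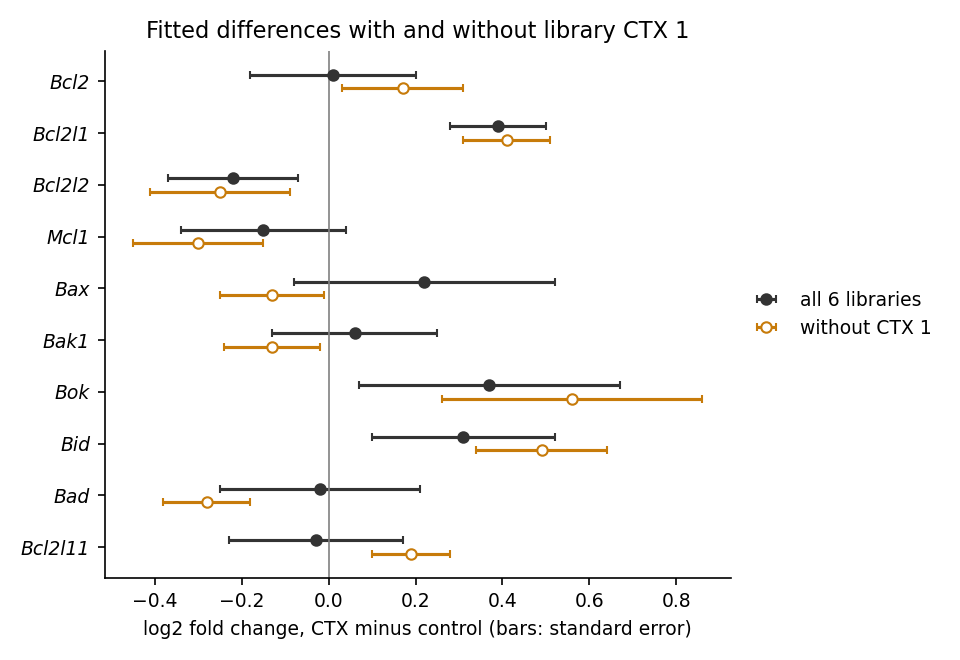
Log2 fold change, CTX minus control, of each member from limma with all 6 libraries (filled) and without CTX 1 (open), with bars of 1 standard error. Bcl2l1 is at 0.39 and 0.41 in the 2 fits, while Bax, Bak1 and Bcl2l11 change sign.

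Set against each other by role, the mean ratio of pro-death to anti-death genes was higher in CTX, but the groups overlapped. Bax, Bak1, Bok, Bid, Bad and Bcl2l11 summed to 187.3, 136.1 and 125.4 RPKM in CTX 1, 2 and 3 and 123.8, 127.8 and 129.8 RPKM in controls 1, 2 and 3. The anti-death sum was 116.9, 93.96 and 95.8 RPKM in CTX and 120.5, 116.1 and 92.5 RPKM in control. The ratio of pro-death to anti-death sums was 1.60, 1.45 and 1.31 in CTX 1, 2 and 3 and 1.03, 1.10 and 1.40 in controls 1, 2 and 3. CTX 1, with the highest ratio, is the library with the length trend. Among the other libraries, the ratio was higher in the follicle-rich CTX 2, CTX 3 and control 3 than in the luteal-rich controls 1 and 2. The parts of the length trend and of cell content in the ratio were not tested. Control 3 lay above CTX 3, and the group means were 1.45 ± 0.146 in CTX and 1.18 ± 0.199 in control. No test was planned for this score, which runs over genes chosen with results known.

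Bax and Mcl1 were the most abundant genes of their sums in every library. Bax was 55, 38 and 37.2% of the pro-death sum in CTX 1, 2 and 3 and 45.7, 45.7 and 36.8% in controls 1, 2 and 3. Mcl1 was 71.4, 64.7 and 63.7% of the anti-death sum in CTX and 70.7, 69.5 and 67.5% in control. Without both genes the ratio was 2.52, 2.54 and 2.27 in CTX and 1.90, 1.96 and 2.73 in control, where control 3 was the highest library. By role, fold changes were positive for 2 of 4 anti-death genes (median −0.07), 3 of 3 effectors (median 0.22) and 1 of 3 BH3-only genes (median −0.02), against a median of −0.01 over all genes. Without CTX 1 the effectors had 1 of 3 positive (median −0.13) and the BH3-only genes 2 of 3 (median 0.19).

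The Bax to Bcl2 ratio, often quoted as an index of susceptibility to apoptosis, was 57.2, 19.4 and 15.2 in CTX 1, 2 and 3 and 21.3, 28.3 and 18 in controls 1, 2 and 3. CTX held both the highest and the lowest ratio, and the mean was 30.6 ± 23.1 in CTX and 22.6 ± 5.28 in control. Bax is the shortest member (1576 exonic bases) and Bcl2 the longest (9157). The parts of the length trend and of the cell content of CTX 1 in its ratio were not tested. Among the anti-death genes, Bcl2l1 was 11.4, 14.4 and 14.6% of the summed level in CTX 1, 2 and 3 and 7.62, 9.15 and 11.5% in controls 1, 2 and 3, a share picked for display after its values were seen. Control 3 lay just above CTX 1, so this share overlapped where the level of Bcl2l1 did not.

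**Figure D4:**
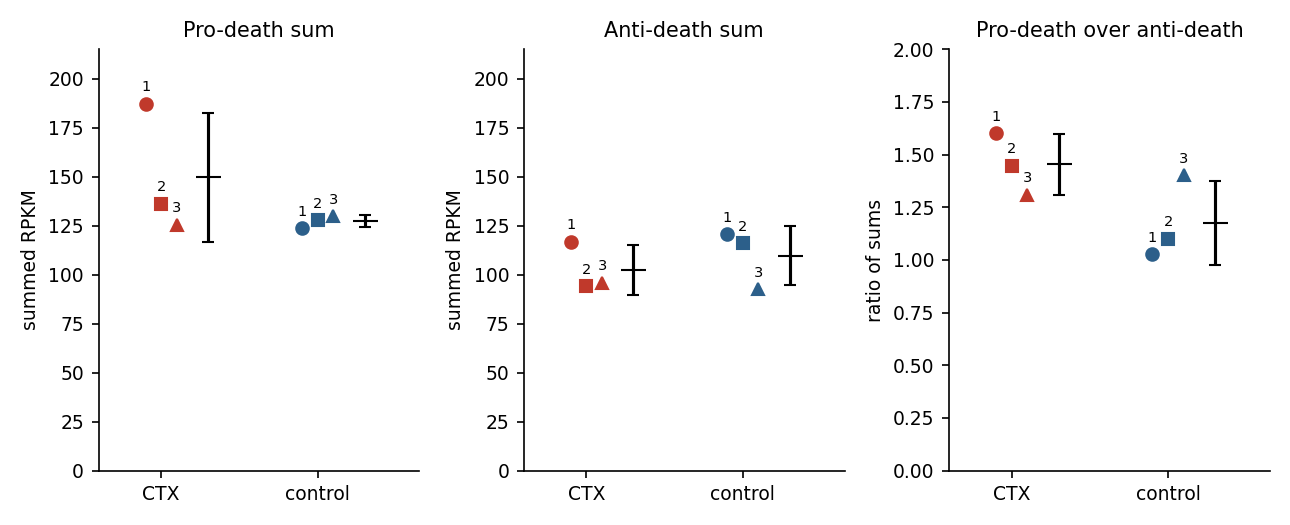
Summed RPKM of the 6 pro-death genes, of the 4 anti-death genes, and their ratio, for CTX (left in each panel) and control libraries, numbered by replicate, with bars for mean and SD (n = 3). CTX 1 has the highest pro-death sum (187.3 RPKM), and the ratio of control 3 (1.40) lies among those of the CTX libraries (1.31 to 1.60).

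The other family genes gave no call either. Of 17 further symbols, 16 matched and 10 were tested, with 0 called higher and 0 called lower. Fold changes were positive for 6, where 48.8% of all genes tested had a positive one, and the median was 0.01. Bmf, a BH3-only gene linked to the cytoskeleton, had 9.51, 8.56 and 7.62 RPKM in CTX 1, 2 and 3 and 11.9, 15.4 and 10.4 RPKM in controls 1, 2 and 3. It was the 1 of 10 tested genes of this list with all CTX libraries below all controls, where 5.5% of all genes tested had that order (log2 fold change −0.49 ± 0.17, limma adjusted p of 1). Bik, another BH3-only gene, had 1.75, 2.62 and 2.87 RPKM in CTX and 1.47, 1.87 and 1.33 RPKM in control, with CTX 1 inside the control range. Bbc3, which encodes the p53 target PUMA, a mediator of oocyte death after DNA damage in mice, had 5.22, 2.79 and 2.37 RPKM in CTX and 2.88, 3.80 and 3.23 RPKM in control, so the CTX libraries lay on both sides of the controls. Pmaip1, which encodes its partner NOXA, was below the filter at 0.44 to 0.64 RPKM in CTX and 0.57 to 0.81 RPKM in control.

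Bcl2l10, a family member whose RNA is abundant in mouse oocytes, had 7.37, 26 and 25.1 RPKM in CTX 1, 2 and 3 and 11.1, 9.04 and 23.8 RPKM in controls 1, 2 and 3. Its high libraries were those of Bok and of the oocyte markers. Bcl2a1b, an anti-death gene of blood cells, had 5.53, 2.58 and 4.32 RPKM in CTX and 5.15, 4.55 and 5.39 RPKM in control, beside a macrophage marker sum of 520.3, 345.3 and 343.6 RPKM in CTX and 534.3, 410.1 and 365.1 RPKM in control. Reads may be split between it and its near-identical copies such as Bcl2a1d, which averaged 1.16 ± 0.239 RPKM in CTX and 1.22 ± 0.274 RPKM in control. Bnip3 and Bnip3l, mitophagy genes with a BH3-like region, averaged 41 ± 11.9 and 40.3 ± 7.96 RPKM in CTX and 50.8 ± 4 and 39.4 ± 5.7 RPKM in control. Bcl2l12 and Bcl2l13 had overlapping groups, at 12.6 ± 0.579 and 11.5 ± 0.695 RPKM in CTX and 12.4 ± 1.4 and 11.2 ± 0.974 RPKM in control.

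Of 13 upstream regulators and partners, 12 were tested, with 0 called in either direction. Fold changes were positive for 6, where 48.8% of all genes tested had a positive one, and the median was −0.01. The largest positive fold change was that of Dynll1, a dynein light chain that binds BIM, at 49.1, 43.4 and 44 RPKM in CTX 1, 2 and 3 and 34, 31.2 and 31.4 RPKM in controls 1, 2 and 3. Dynll1 was the 1 tested gene of this list with all CTX libraries above all controls, where 3.32% of all genes had that order. Its log2 fold change was 0.49 ± 0.11 (limma adjusted p of 1). The most negative was Casp8, whose product cleaves BID, at 10.2 ± 0.807 RPKM in CTX and 12.1 ± 1.1 RPKM in control (log2 −0.23 ± 0.12, limma adjusted p of 1), and the most abundant was Tmbim6, a BAX inhibitor gene, at 118 ± 35.9 RPKM in CTX and 116.6 ± 13.2 RPKM in control.

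Downstream of the mitochondria, all 17 genes of the apoptosome and caspases were tested, with 0 called in either direction. Fold changes were positive for 4, where 48.8% of all genes tested had a positive one, and the median was −0.03. Xiap, a caspase inhibitor, had 8.83, 12.1 and 12.9 RPKM in CTX and 13.2, 13.1 and 13.9 RPKM in control. All CTX libraries were below all controls, by a narrow margin apart from CTX 1 (log2 −0.24 ± 0.16, limma adjusted p of 1). Xiap was the 1 gene of this list with that order, where 5.5% of all genes tested had it. Birc5, which encodes the mitotic protein survivin, had the largest positive value (log2 0.22 ± 0.28, limma adjusted p of 1) with 7.41, 12 and 11.2 RPKM in CTX and 6.5, 7.24 and 12.8 RPKM in control.

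Likeness of pattern was measured over the 6 libraries as the root mean square difference of log2(RPKM + 1), each gene centred on its own mean, and describes these libraries only. Nearest to Bok were Cks1b (0.040), Col1a2 (0.076), Cdkn3 (0.082), Scarf2 (0.084) and Ppp1r15a (0.088). Cks1b, a cyclin-dependent kinase subunit gene, had 25.8, 37.8 and 37 RPKM in CTX 1, 2 and 3 and 21.6, 20.7 and 40.1 RPKM in controls 1, 2 and 3, the same libraries high as for Bok. Bax was the 1 other member compared, because its levels spanned more than 1 on the log2 scale, and its nearest genes were Uqcc2 (0.041), Nedd8 (0.043) and Eif5a (0.043). Nedd8, a ubiquitin-like protein gene, had 214.7, 117 and 105 RPKM in CTX and 122, 123 and 103 RPKM in control, again with CTX 1 far above the rest.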

How the data were processed

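RNA from 6 whole-ovary libraries was analysed, 3 CTX and 3 control. Frozen ovaries were extracted with Trizol and sequenced from TruSeq libraries, per the labels' protocols. The authors deposited 1 value per gene and library, rounded to 2 decimals and taken as RPKM; no header states the unit. Low values multiplied by exonic length stepped by whole reads (97.3 to 97.8% within 0.2 reads, for values up to 15 reads in genes up to 1000 exonic bases), which gave the depth. The submitters' processing notes list Bowtie 0.12.2 and mm10; the counter, annotation and strand use were not given in the sources used here. Exonic lengths and coordinates came from GENCODE M21 (GRCm38), which matched 98.2% of identifiers.

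Genes with at least 1 RPKM in at least 3 libraries were fitted as log2(RPKM + 1) with limma 3.58.1 (R 4.3.3), with a mean-variance trend, two-sided, with calls where the Benjamini-Hochberg adjusted p was under 0.05; the pseudocount understates changes of low genes. The fit was also run on simulated data with 200 changed genes. Noise was drawn separately for each gene, so that run does not show how shared differences in cell content act on the calls. Approximate reads per member were 169 (Bid) or more in every library. Sums and ratios over members have no test. The members, gene lists, marker lists and naming rule were chosen with earlier results of these data known. The rule named all members, every tested gene among other family genes, and in the 2 other pathway lists the most abundant gene and those with the highest and lowest fold change; Bcl2l2-Pabpn1 was not matched by symbol, and Pmaip1, below the filter, was added after its values were seen. One gene that the rule names is not reported here. Alternatives were 2 other scalings, 2 filters, 2 pseudocounts, no trend, array weights, a replicate block and each library left out.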

Additional observations from a re-analysis of the deposited data

How the results depend on the processing

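No member was called under trimmed-mean scaling, quantile normalization, either filter, either pseudocount, without the trend, with the replicate block or with any library left out. Bcl2 and Bid were not tested at a mean of at least 5 RPKM. Over all genes the fit called 0, and with 1 library left out between 0 and 5 (5 without CTX 1, 2 higher and 3 lower, no member among them). With array weights 6809 genes were called (27.9% higher, 18.9% lower), with weights of 0.0806 for CTX 1 and 0.254 for control 3 and 1.06 to 6.36 for the others, and 6 members passed: Bcl2l1 (0.50), Bok (0.83) and Bid (0.66) higher, Bcl2l2 (−0.39), Mcl1 (−0.45) and Bad (−0.28) lower. In that fit the controls with most weight were luteal-rich and the CTX libraries follicle-rich, so group and cell content cannot be told apart. Log2 fold changes reversed for Bax (−0.18), Bak1 (−0.17) and Bcl2l11 (0.15) with array weights and for Bcl2l11 (0.0029) after quantile normalization. With 1 library left out, they ran from −0.10 to 0.17 for Bcl2, −0.13 to 0.43 for Bax, −0.13 to 0.16 for Bak1, −0.28 to 0.17 for Bad and −0.15 to 0.19 for Bcl2l11, with no change of sign in the other 5 members (Mcl1 −0.30 to −0.07, Bcl2l2 −0.37 to −0.14, Bid 0.20 to 0.49, Bok 0.21 to 0.67, Bcl2l1 0.33 to 0.42). The causes were not tested. In counts and list medians without CTX 1, added after the data were seen, members with all CTX above all controls numbered 4 in place of 1, and below, 2 in place of 0, and the medians of the effectors (−0.13) and BH3-only genes (0.19) turned. The log2 difference of the pro-death to anti-death ratio was 0.31, and 0.22 to 0.45 with 1 library left out, 0.17 without Bax and Mcl1 and 0.14 as a mean of log2 levels. That of Bax to Bcl2 was 0.21, and −0.37 to 0.59. The replicate block left the count at 0 calls and Bcl2l1 at 0.39 with an adjusted p of 1 in limma. Deviations of CTX and control libraries of the same number correlated at 0.40, −0.54 and 0.60 for numbers 1, 2 and 3. They were positive where both libraries were luteal-rich or both follicle-rich, so they cannot show whether the numbers pair the samples. The labels state no pairing. Exact counts are lost to rounding, so no counting intervals are given.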
